A study of Mus musculus with 5 samples.

Results

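The collagen genes were taken as the protein-coding genes of mouse chromosomes 1 to 19 whose symbol begins with Col, a number, the letter a and a second number, in the GENCODE annotation of the mm9 genome. This rule returned 42 of 21418 protein-coding genes. Among them, Col4a3bp encodes a ceramide transfer protein and no collagen, so that 41 collagen genes were counted, of which 11 encode fibrillar and 30 other collagens.

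Trimethylation of lysine 27 of histone H3 (H3K27me3) was profiled by chromatin immunoprecipitation sequencing in mouse embryonic fibroblasts (MEFs), in 5 libraries with 1 library for each group. All lines were derived from parental MEFs with a floxed Eed allele, Eed being a core subunit of Polycomb Repressive Complex 2 (PRC2), and 3 of them carried stable lentiviral expression of H3.3K27M, of H3.3K27R or of human EZHIP (hEZHIP). The H3.3K27R line, named K27R, served as the reference here, because arginine at this residue was introduced by the same kind of lentivirus. The parental Control and the EEDnull line, a single clone obtained after Cre-mediated deletion, were not analysed here.

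PRC2 places H3K27me3 over genes that a cell keeps silent, and the mark spreads from sites rich in unmethylated CpG dinucleotides over wide regions. H3.3K27M, found in diffuse midline glioma, and EZHIP, found in posterior fossa ependymoma, both inhibit PRC2. Collagens are the chief structural proteins of the extracellular matrix, and fibroblasts are known as the main source of the type I, III, V and VI forms, while type II, IX and XI collagens belong to cartilage.

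The files held positions of enriched regions (peaks) without read counts, heights or scores, so that the depth of each library is unknown. On chromosomes 1 to 19, the K27R list held 12093 peaks with a median width of 15.6 kb, the K27M list 3338 peaks of 6.8 kb and the EZHIP list 4890 peaks of 4.5 kb. With 1 library a group there is no replicate error and no test between groups. Intervals beside shares are 95% exact Clopper-Pearson intervals, cover counting error only and treat genes as independent. The peak lists hold no expression values, so that the cell type could not be checked from its transcripts. The RNA sequencing that the paper reports for MEFs was not used here. Of 14 fibroblast marker genes, 1 had its start site in a K27R peak (Pdgfra, a receptor of platelet-derived growth factor), against 5 of 6 chondrocyte, 3 of 6 epithelial, 3 of 4 neural, 2 of 3 endothelial and 0 of 2 blood markers and 28.2% of all genes. These marker lists include 4 collagens (Col1a1, Col1a2, Col3a1 and Col2a1).

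Promoters are printed for the member with the widest K27R region among those marked at the start site and kept under both inhibitors (Col13a1), marked at the start site and in neither inhibitor list (Col6a4), and marked in the gene body alone (Col28a1). Col2a1 and Col23a1 were added after their values were seen, because a residual peak spanned much of the marked region of the first and began just beyond the start site of the second. Each is read from the mm9 sequence, 5′ to 3′ on the coding strand, from 250 bases before to 50 bases after the annotated start. Every CG dinucleotide is in capitals. The windows are chr10:61441807-61442106 (minus strand) for Col13a1, chr15:97835106-97835405 (minus) for Col2a1, chr11:51103172-51103471 (plus) for Col23a1, chr9:105999065-105999364 (minus) for Col6a4 and chr6:8142568-8142867 (minus) for Col28a1.
Col13a1: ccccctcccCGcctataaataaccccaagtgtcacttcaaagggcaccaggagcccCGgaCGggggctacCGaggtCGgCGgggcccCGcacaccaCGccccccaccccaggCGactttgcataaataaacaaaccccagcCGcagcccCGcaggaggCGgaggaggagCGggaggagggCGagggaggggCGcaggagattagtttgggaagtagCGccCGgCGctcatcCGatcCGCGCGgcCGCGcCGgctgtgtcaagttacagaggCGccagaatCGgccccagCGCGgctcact
Col2a1: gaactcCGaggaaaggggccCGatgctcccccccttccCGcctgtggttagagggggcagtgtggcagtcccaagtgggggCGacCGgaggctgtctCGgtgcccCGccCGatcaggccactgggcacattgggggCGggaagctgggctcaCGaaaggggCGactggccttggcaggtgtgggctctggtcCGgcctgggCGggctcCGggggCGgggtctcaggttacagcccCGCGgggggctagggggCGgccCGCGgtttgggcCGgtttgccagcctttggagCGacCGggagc
Col23a1: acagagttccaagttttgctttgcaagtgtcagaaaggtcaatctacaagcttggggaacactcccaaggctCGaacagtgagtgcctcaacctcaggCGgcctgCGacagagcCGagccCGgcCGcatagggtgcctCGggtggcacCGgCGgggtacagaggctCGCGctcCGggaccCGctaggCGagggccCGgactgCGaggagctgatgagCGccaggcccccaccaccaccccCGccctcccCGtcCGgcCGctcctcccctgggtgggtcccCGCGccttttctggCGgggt
Col6a4: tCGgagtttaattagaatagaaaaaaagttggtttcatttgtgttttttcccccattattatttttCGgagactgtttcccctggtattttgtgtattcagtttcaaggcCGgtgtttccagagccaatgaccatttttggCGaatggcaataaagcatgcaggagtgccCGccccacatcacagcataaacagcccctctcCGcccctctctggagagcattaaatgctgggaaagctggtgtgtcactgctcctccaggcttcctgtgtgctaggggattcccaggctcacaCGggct
Col28a1: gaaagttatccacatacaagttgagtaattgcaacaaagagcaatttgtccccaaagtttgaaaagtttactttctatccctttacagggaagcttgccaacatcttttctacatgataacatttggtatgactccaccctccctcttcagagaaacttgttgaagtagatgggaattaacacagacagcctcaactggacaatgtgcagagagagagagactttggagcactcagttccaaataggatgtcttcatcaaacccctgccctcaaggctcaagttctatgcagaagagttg

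These windows held 29 CpG dinucleotides in Col13a1, 24 in Col23a1, 23 in Col2a1, 7 in Col6a4 and 0 in Col28a1. The median over all 21418 promoters was 12. Windows with many CpG dinucleotides thus occurred both at genes kept under the inhibitors and at Col23a1. The start base of Col23a1 lay outside both residual lists. Its K27M and EZHIP peaks began 379 bp downstream and overlapped the CpG island that spans the start, so that Col23a1 is no clear case of a CpG-rich start without retention.

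The first comparison asked which collagen genes carried H3K27me3 in K27R cells. The classical fibroblast collagens had no K27R peak over the start site, while Col2a1, the type IX chains, 3 of 4 transmembrane collagens and several minor collagens had one. Not every collagen of cartilage was marked, since Col10a1 and Col11a1 had no K27R peak. The marked genes also included Col14a1, a collagen of tendon and dermis. The start site of 16 of 41 collagens lay in a K27R peak (39%, interval 24.2 to 55.5%), beside 28.2% of all genes. The interval includes the share of all genes. Another 7 collagens had a K27R peak in the gene body alone, and 18 had none anywhere in the gene. The share was 4 of 11 among fibrillar collagens (36.4%, interval 10.9 to 69.2%) and 12 of 30 among the others (40%, interval 22.7 to 59.4%), so that the groups were not distinguishable at this size.

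The second comparison asked where the mark remained in cells with H3.3K27M or EZHIP. The start sites of 7 of 41 collagens lay in a K27M peak and those of 7 of 41 in an EZHIP peak (17.1% each, interval 7.15 to 32.1%), beside 8.94% and 7.96% of all genes. These were the same 7 genes in both lists: Col2a1, Col27a1, Col9a2, Col14a1, Col13a1, Col25a1 and Col15a1. Of the 16 collagens marked in K27R, 7 were therefore kept in both (43.8%, interval 19.8 to 70.1%) and 9 were in neither (56.2%, interval 29.9 to 80.2%), and 0 were in 1 inhibitor list alone. Among all 6041 genes marked in K27R, 24.1% were kept in both, 64.3% were in neither and 11.5% were in 1 list alone. The collagen intervals include the shares of all marked genes for the first 2 of these classes. For the third class no interval was computed, and no difference from 11.5% is read from 0 of 16 genes. The grid of peak widths by gene shows this state for every member.

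**Figure D1:**
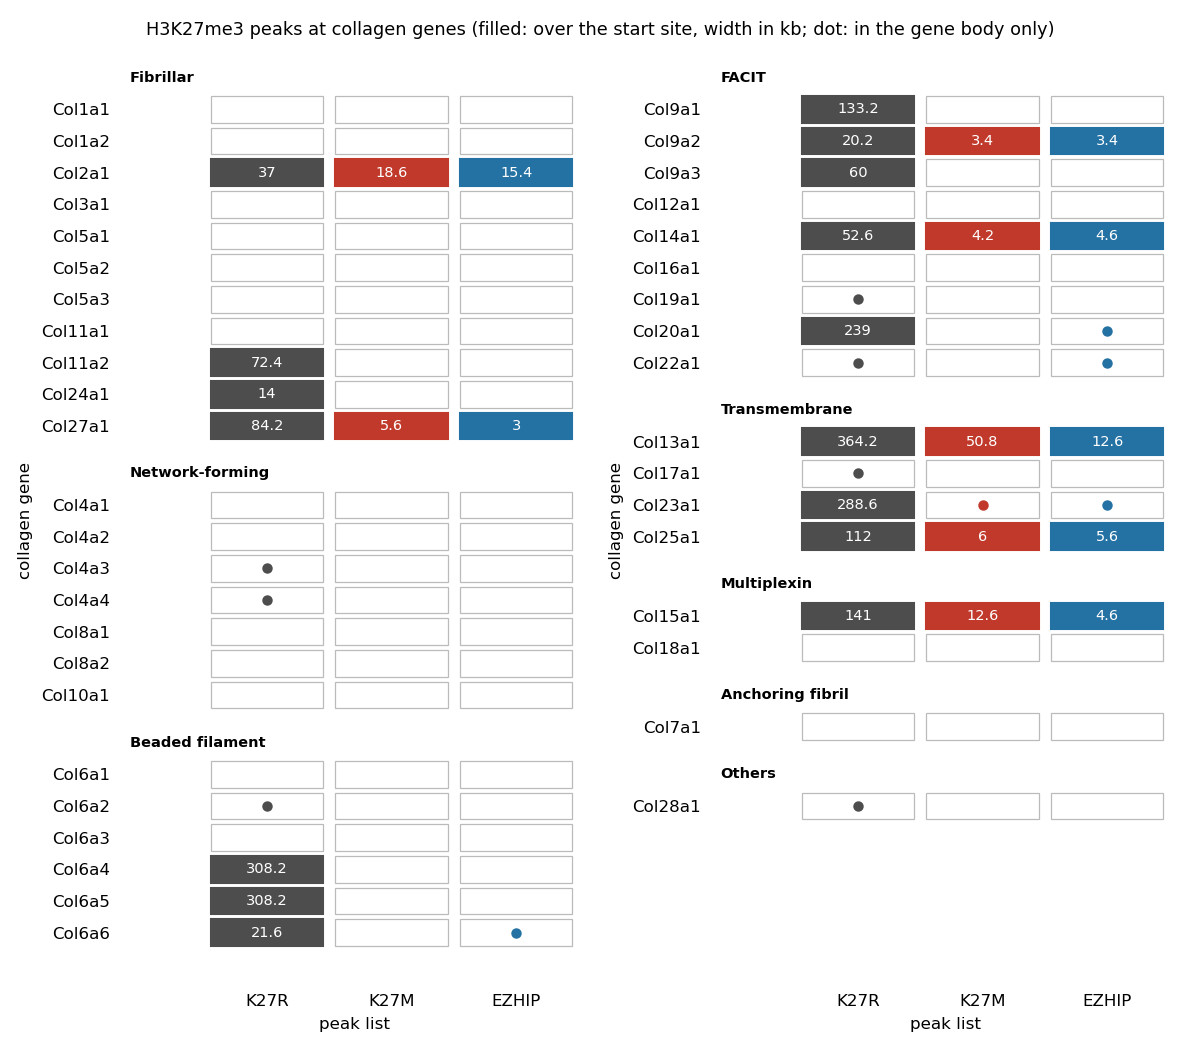
Each row is 1 of the 41 collagen genes, grouped by family, and each column a peak list (K27R, K27M, EZHIP; 1 library each). A filled cell gives the width in kb of the H3K27me3 peak over the start site, a dot marks a peak in the gene body with the start site outside any peak, and an empty cell no peak. Filled K27M and EZHIP cells occur at the same 7 genes, and the rows of Col1a1, Col1a2, Col3a1, Col5a1, Col5a2, Col6a1 and Col6a3 are empty.

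**Figure D2:**
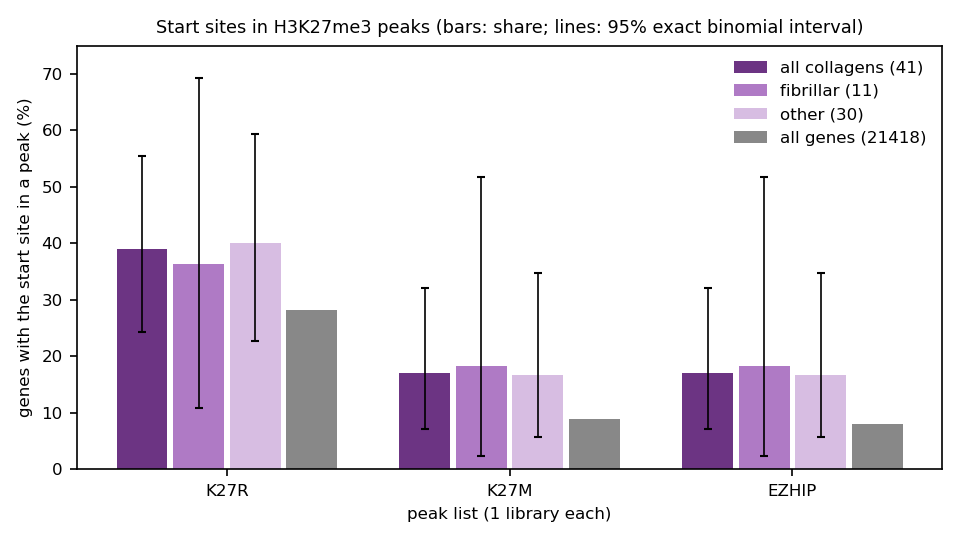
Share of genes in percent whose start site lay in a peak of each list, for 41 collagens, the 11 fibrillar and 30 other collagens among them, and all 21418 genes. Bars start at 0, and lines are 95% exact binomial intervals, which reach below the bar of all genes in each list for every collagen set.

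Fibrillar collagens form the load-bearing fibrils of connective tissue. Col1a1 (chr11:94797538-94814356) and Col1a2 (chr6:4454814-4491543), the chains of type I collagen of skin, bone and tendon, had no peak in any of the 3 lists over the gene. The nearest K27R peak lay 101 kb from the Col1a1 start and 111 kb from the Col1a2 start. Col3a1 (chr1:45368383-45406551), the type III collagen of skin and vessels, was 612 kb from the nearest K27R peak. Col5a1 (chr2:27741945-27895034) and Col5a2 (chr1:45431166-45560127), which set the width of type I fibrils, were 161 kb and 420 kb away. Col5a3, another type V chain, and Col11a1, a cartilage chain that some fibroblasts also make, were also without a K27R peak, at 16.7 kb and 848 kb from the nearest one.

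The remaining 4 fibrillar genes lay in K27R peaks. Col2a1, the principal collagen of cartilage, stood in a K27R region of 37 kb (chr15:97824001-97861000). It kept a K27M peak of 18.6 kb (chr15:97826401-97845000) and an EZHIP peak of 15.4 kb (chr15:97828001-97843400), the EZHIP peak lying inside the K27M peak. These peaks ran from 9.85 and 8.25 kb upstream of the start site to 8.75 and 7.15 kb inside the gene, across 22 and 18 annotated exons and 2 CpG islands. The K27R region was 1.99-fold as wide as the K27M peak and 2.40-fold as wide as the EZHIP peak, which were the smallest of these ratios among the 7 kept genes.

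Col27a1, a minor fibrillar collagen of cartilage, lay in a K27R region of 84.2 kb (chr4:62807401-62891600) that also held the starts of Ambp and Kif12. The peaks over its annotated start were 5.6 kb in K27M (chr4:62870801-62876400) and 3 kb in EZHIP (chr4:62873001-62876000). No coding transcript begins at this start. The coding transcript of Col27a1 begins 1.43 kb further downstream, past the ends of the K27M peak at 1.36 kb and of the EZHIP peak at 0.962 kb, and counted from coding transcripts Col27a1 was in neither inhibitor list.

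Col11a2, the second type XI chain of cartilage, lay wholly within a K27R region of 72.4 kb (chr17:34176001-34248400) and had no inhibitor peak over the gene. The nearest K27M peak was 33.4 kb and the nearest EZHIP peak 99.2 kb from its start. Col24a1, a minor fibrillar chain of developing bone, began in a K27R peak of 14 kb (chr3:144944201-144958200), which together with a second peak covered 7.15% of its 259.54 kb. No inhibitor peak was near it, the closest lying 7684 kb away in K27M.

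The network-forming collagens build basement membranes and hexagonal lattices, and 0 of 7 had the start site in any list. The interval, 0 to 41%, includes the shares of all genes in K27R, K27M and EZHIP (28.2%, 8.94% and 7.96%). Col4a1 and Col4a2, the ubiquitous basement membrane chains, start 21 bp apart on opposite strands of chromosome 8 within 1 CpG island, and both lay 164 kb from the nearest K27R peak. Col4a3 and Col4a4, the chains of the kidney filter, share a start region on chromosome 1 in the same way, 72 bp apart. Both carried K27R peaks inside the gene, which covered 30.9% of Col4a3 (peaks of 32.6 and 9.2 kb, chr1:82618801-82651400 and chr1:82704201-82713400) and 20.3% of Col4a4 (peaks of 4 and 23.6 kb, chr1:82485801-82489800 and chr1:82538401-82562000). The first K27R peak inside the gene began 35.3 kb from the start of Col4a3 and 21.4 kb from that of Col4a4. Neither had an inhibitor peak within 1826 kb of the start. Col8a1 and Col8a2, of the corneal endothelium, and Col10a1, of hypertrophic cartilage, had no K27R peak.

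Type VI collagen forms beaded filaments around cells. Its classical chains and its alternative chains were in opposite states in K27R cells. Col6a1 (chr10:76171537-76188913) and Col6a3 (chr1:92663435-92740529) had no peak, the nearest K27R peak lying 9.89 kb and 34.7 kb away. Col6a2 (chr10:76058507-76086375) was marked at its 3′ end alone, over 12.5% of the gene, by a 32.6 kb peak (chr10:76029401-76062000) that runs on over the start of Ftcd, a liver enzyme gene of folate metabolism. The start sites of Col6a4, Col6a5 and Col6a6, which encode the alternative chains, all lay in K27R peaks. For the whole family this was 3 of 6 (interval 11.8 to 88.2%), beside 28.2% of all genes. Col6a4 and Col6a5 shared a single K27R region of 308.2 kb (chr9:105750601-106058800) that covered 100% of both genes, and are therefore not independent observations. Col6a6 lay next to it, beginning in a separate K27R peak of 21.6 kb (chr9:105713601-105735200), and was covered over 90.3% of its length.

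None of the 3 alternative chains was kept under the inhibitors, and 64.3% of all genes marked in K27R were likewise in neither list. Within the shared region, K27M retained 2 peaks of 4.8 and 13.2 kb (chr9:106016401-106021200 and chr9:106044201-106057400), and EZHIP 2 peaks of 3 and 9.8 kb inside them. Those nearest to Col6a4 ended 17.3 and 18.7 kb upstream of its start, all lay outside both genes, and they covered 5.84% and 4.15% of the region. Inside Col6a6, EZHIP had an intronic peak of 3.2 kb (chr9:105620601-105623800) at 107 kb from the start, and K27M had none.

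FACIT collagens bind the surface of fibrils and link them to other matrix proteins. The start site lay in a K27R peak in 5 of 9 (interval 21.2 to 86.3%), beside 28.2% of all genes. The 3 chains of type IX collagen, which coat cartilage fibrils, were all marked in K27R, at 133.2 kb for Col9a1 (chr1:24133601-24266800), 20.2 kb for Col9a2 (chr4:120703801-120724000) and 60 kb for Col9a3 (chr2:180331801-180391800). Of these, Col9a2, with the narrowest K27R region, was kept, and its residual peak had the same interval in K27M and EZHIP (chr4:120710401-120713800, 3.4 kb), from 1.59 kb upstream to 1.81 kb downstream of the start. Col9a1 retained in K27M a peak of 3.8 kb (chr1:24177401-24181200) that ended 3.25 kb before its start, and in EZHIP a peak of 2 kb (chr1:24147601-24149600) that ended 34.8 kb before it. The residual peaks in the region of Col9a3 lay beyond its 3′ end, the nearest beginning 27.9 kb from the start in K27M and 26.5 kb in EZHIP.

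Col14a1, a fibril-associated collagen of tendon and dermis, had a K27R region of 52.6 kb (chr15:55108401-55161000). It kept peaks of 4.2 kb in K27M (chr15:55138001-55142200) and 4.6 kb in EZHIP (chr15:55138001-55142600), with the same upstream edge 1.30 kb before the start. It was the single kept collagen with the wider peak in EZHIP and the single one without a CpG island within 1000 bp of the start. Col20a1 lay in a K27R region of 239 kb (chr2:180716601-180955600) with 8 further gene starts, among them Chrna4 and Eef1a2, genes of neurons. That region retained 7 K27M and 12 EZHIP peaks, covering 54.4% and 42.9% of it, but the nearest of them began 34.6 kb and 30.8 kb downstream of the Col20a1 start. An EZHIP peak of 3 kb overlapped the 3′ end of Col20a1 over 0.790% of the gene.

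The other FACIT genes were marked less widely. Col19a1 had an internal K27R peak of 5.8 kb in a gene of 325.58 kb, and Col22a1, of muscle-tendon junctions, had internal peaks of 9.8 and 8.8 kb (chr15:71716801-71726600 and chr15:71749201-71758000), with an EZHIP peak of 1.8 kb inside the first of them (chr15:71721601-71723400). Col12a1 and Col16a1 had no K27R peak.

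All 4 transmembrane collagens, which are anchored in the cell surface, had a K27R peak in the gene (interval 39.8 to 100%). This stands beside 34.2% of all genes and 42.2% of those of at least 50 kb. Over the start, 3 of 4 had a K27R peak (interval 19.4 to 99.4%), beside 28.2% of all genes. Col13a1, a collagen of the neuromuscular junction, stood in the widest K27R region among the 41 collagens, 364.2 kb (chr10:61288001-61652200), which covered the whole gene and the starts of 2010107G23Rik and of Neurog3, a transcription factor of endocrine progenitors. It kept a K27M peak of 50.8 kb (chr10:61424201-61475000) and an EZHIP peak of 12.6 kb (chr10:61433401-61446000) over the start. The K27M peak reached 33.1 kb upstream and 17.7 kb into the gene and overlapped 4 EZHIP peaks, of which the one over the start reached 4.14 kb upstream and 8.46 kb into the gene. In the whole region, 10 K27M peaks covered 55.63% and 15 EZHIP peaks covered 26.96%.

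Col25a1, a membrane collagen made by neurons, had a K27R region of 112 kb (chr3:129786601-129898600). It kept peaks of 6 kb in K27M (chr3:129880401-129886400) and 5.6 kb in EZHIP (chr3:129880601-129886200), the latter 0.2 kb shorter at each edge. In addition, 9 further K27R peaks lay inside this gene, the longest of all collagens at 418.99 kb, and K27R covered 58.6% of it, against 0.619% in K27M and 0.571% in EZHIP. Col23a1 lay in a K27R region of 288.6 kb (chr11:51099401-51388000) that covered 96.8% of the gene. Its residual peaks both began 379 bp downstream of the start, at the same position, and measured 4.8 kb in K27M (chr11:51103801-51108600) and 5 kb in EZHIP (chr11:51103801-51108800). They overlapped 1 CpG island, which spans the start base (chr11:51103270-51103966). Col23a1 was thus in neither list by its start base and in both lists when 1000 bp around the start was allowed. EZHIP had 4 further peaks of 1.6 to 2.8 kb inside Col23a1 where K27M had none. Col17a1, the hemidesmosome collagen of epithelia, had a K27R peak of 12.8 kb (chr19:47751001-47763800) that began 2.78 kb into the gene, over 28.0% of it, and no inhibitor peak.

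Of the multiplexins, basement membrane collagens with an anti-angiogenic C-terminal fragment, Col15a1 was marked and Col18a1 was not. The K27R region of Col15a1 spanned 141 kb (chr4:47144201-47285200), with a K27M peak of 12.6 kb (chr4:47214001-47226600) and an EZHIP peak of 4.6 kb (chr4:47219001-47223600). The EZHIP peak lay inside the K27M peak and reached 2.03 kb upstream and 2.57 kb downstream of the start, against 7.03 kb and 5.57 kb in K27M. Col7a1, of the anchoring fibrils beneath epidermis, had no K27R peak. Col28a1, a minor collagen known from peripheral nerve, was covered over 58.7% by 4 K27R peaks of 72.2, 68.2, 6.6 and 18.4 kb (chr6:7896801-7969000, chr6:7978001-8046200, chr6:8074401-8081000 and chr6:8098401-8116800). The peak nearest to its start began 25.8 kb into the gene, and no inhibitor peak lay within 634 kb of the start.

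**Figure D3:**
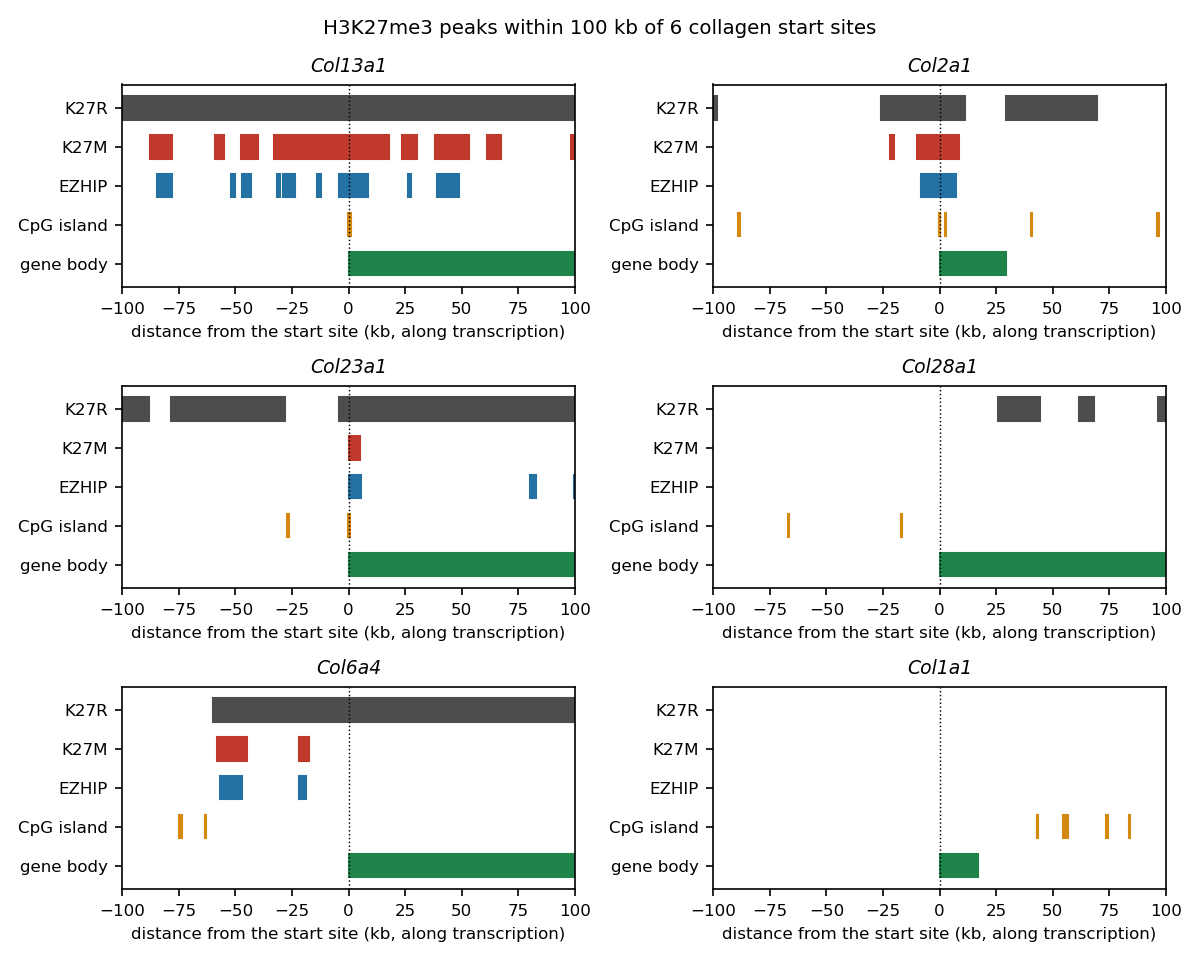
H3K27me3 peaks of the 3 lists, CpG islands and the gene body within 100 kb of 6 collagen start sites, with the distance from the start site in kb along the direction of transcription on the x axis and segments clipped at the edges. Residual peaks cover the start of Col13a1 and Col2a1, begin 379 bp downstream in Col23a1 and lie at least 17.3 kb upstream in Col6a4, while Col28a1 is marked in K27R alone and Col1a1 has no peak.

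The width of the peaks over the 7 kept start sites was compared between the lists. In K27R these regions measured 20.2 to 364.2 kb (median 84.2), in K27M 3.4 to 50.8 kb (median 6) and in EZHIP 3 to 15.4 kb (median 4.6). Over the 1458 genes of the genome kept in both lists, the medians were 132.4, 13.8 and 9.1 kb. The K27M peak was the wider in 5 of 7 collagens, the EZHIP peak in 1, and both were equal in 1. Over all genes kept in both, K27M was the wider in 78.5%, and no difference between these shares is read from 7 genes. The ratio of K27M to EZHIP width was 4.03 in Col13a1, 2.74 in Col15a1, 1.87 in Col27a1, 1.21 in Col2a1, 1.07 in Col25a1, 1.00 in Col9a2 and 0.913 in Col14a1. Its median was 1.21, and 1.42 over all genes kept in both. The lists differ in the shortest gap between neighbouring peaks, 5200 bp for K27M and 1200 bp for EZHIP, and joining of neighbours bears on width. With peaks up to 10000 bp apart merged in every list, K27M was again the wider in 5 of 7 collagens.

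**Figure D4:**
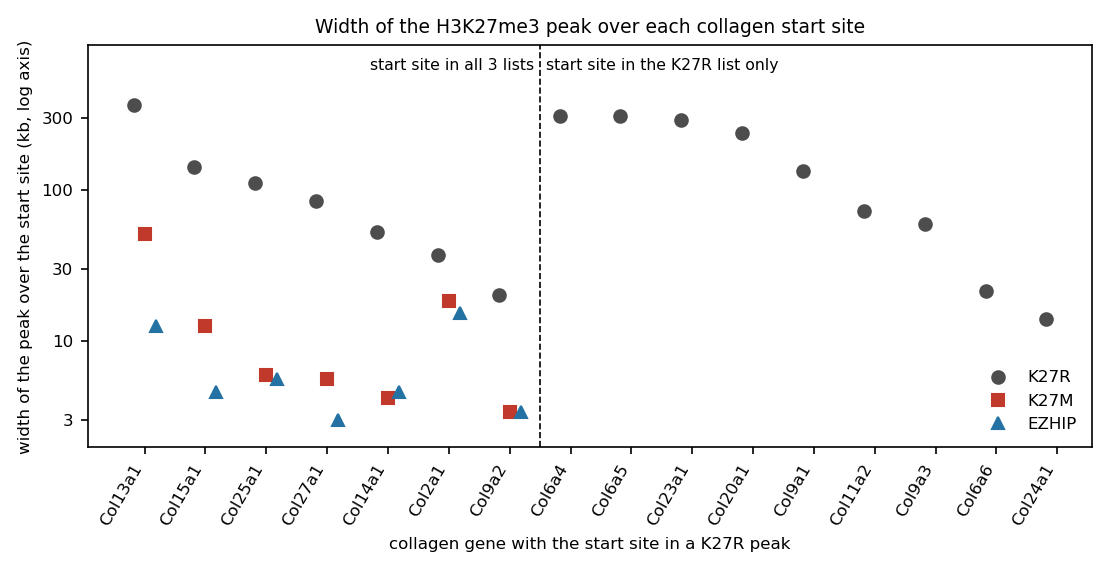
Width in kb (log axis) of the peak over the start site for the 16 collagens with a K27R peak there, with circles for K27R, squares for K27M and triangles for EZHIP, 1 library each. Kept genes stand left of the dashed line and genes in neither inhibitor list right of it, and K27R widths overlap between the sides, with 20.2 to 364.2 kb on the left and 14 to 308.2 kb on the right.

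Counted by gene, the K27R regions of the 9 genes in neither list had a median of 133.2 kb (14 to 308.2 kb). These were 8 regions, since the 308.2 kb region entered for both Col6a4 and Col6a5, which raises this median. It lay above the 84.2 kb of the kept genes, with overlapping ranges. Over all genes, also counted by gene, the order was the opposite, with medians of 77 kb for genes in neither list and 132.4 kb for those kept in both.

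Collagen genes are long, with a median of 107 kb (7.11 to 418.99 kb) against 15.5 kb over all genes, and long genes meet a peak more often. A K27R peak overlapped the body of 23 of 41 collagens (56.1%, interval 39.7 to 71.5%), a K27M peak 8 of 41 (19.5%, interval 8.82 to 34.9%) and an EZHIP peak 11 of 41 (26.8%, interval 14.2 to 42.9%). The shares of all genes were 34.2%, 11.3% and 10.9%, of which the first and the last lie below the collagen interval. Among genes of at least 50 kb, where 26 of the collagens fell, the collagen counts were 16 of 26 in K27R (61.5%, interval 40.6 to 79.8%), 6 of 26 in K27M (23.1%, interval 8.97 to 43.6%) and 8 of 26 in EZHIP (30.8%, interval 14.3 to 51.8%). All genes of that length gave 42.2%, 18.5% and 17.6%, each inside the collagen interval. The body counts beyond the 7 kept genes were Col23a1 in both inhibitor lists, and Col6a6, Col20a1 and Col22a1 in EZHIP.

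By length, K27R peaks covered 34.5% of the summed collagen gene bodies of 4.65 Mb, against 2.06% for K27M and 1.35% for EZHIP. Over all genes these shares were 19.1%, 1.99% and 1.71%. K27R peaks covered 10.7% of the fibrillar genes, K27M peaks 1.24% and EZHIP peaks 0.776%, and the corresponding shares of the other collagens were 41.4%, 2.30% and 1.51%. These shares weigh each gene by its length, and by start sites in K27R (4 of 11 and 12 of 30) the groups were not distinguishable. Single long genes differed widely, since K27R covered 96.8% of Col23a1, 58.6% of Col25a1 and 1.78% of Col19a1. No interval was computed for the shares by length, and no set of genes of similar length was compared. In length, 1602 kb of collagen gene was covered in K27R, and H3K27me3 peaks of the inhibitor lines covered 95.6 kb (K27M) and 62.5 kb (EZHIP).

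The sequence around the start sites was compared between the classes of collagens. A CpG island lay within 1000 bp of the start in 17 of 41 collagens (41.5%, interval 26.3 to 57.9%), beside 55.8% of all genes. The island was present in 6 of 7 kept collagens, in 2 of 9 in neither list (Col23a1 and Col9a3), in 2 of 7 with a K27R peak in the body alone (Col19a1 and Col6a2) and in 7 of 18 without a K27R peak. Among marked collagens with an island, 6 of 8 were kept in both (75%, interval 34.9 to 96.8%), and among those without an island 1 of 8 (12.5%, interval 0.316 to 52.7%). Over all marked genes, these shares were 43.1% of 2810 with an island and 7.68% of 3231 without one. The difference between collagens with and without an island thus had the direction seen over all genes, on 8 genes a side with overlapping intervals.

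The promoter windows gave the same order for kept genes and for those in neither list. The observed to expected CpG ratio had a median of 0.635 in kept collagens (0.189 to 0.936), 0.374 in those in neither list (0 to 0.7003), 0.422 with a K27R peak in the body alone (0 to 0.592) and 0.494 without a K27R peak (0 to 0.902). The ranges of all 4 classes overlapped. The number of CpG dinucleotides had a median of 20 in kept collagens (3 to 29) and 7 in those in neither list (0 to 24), and over all genes of these classes 18 and 5. Col9a2, with 3 CpG dinucleotides in its window, was the lowest of the kept genes, and its island began 225 bp downstream of the start. Unmarked collagens included both extremes, since the Col4a1 window held 37 CpG dinucleotides and the Col3a1 window 0.

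**Figure D5:**
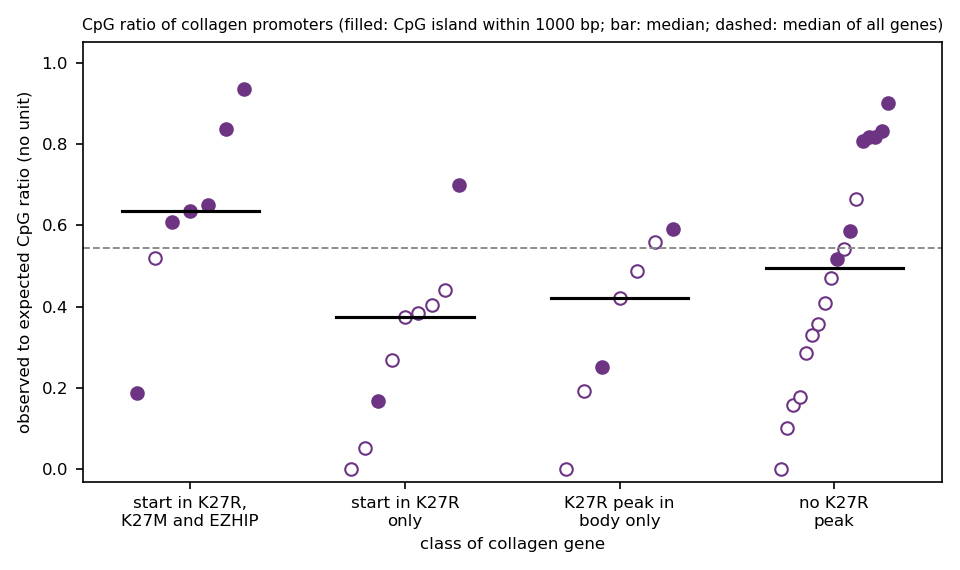
Observed to expected CpG ratio (no unit) of the promoter window of each of the 41 collagens, by class, with filled points for genes that have a CpG island within 1000 bp of the start, a bar at the class median and a dashed line at the median of all genes, 0.544. The medians are 0.635, 0.374, 0.422 and 0.494 from left to right, and the ranges overlap.

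Short motifs were counted in the same windows on both strands, as a description of sequence. The TATA motif TATAAA occurred in 6 of 41 collagens (14.6%) and in 13.5% of all promoters. CCAAT occurred in 17 of 41 (41.5%, beside 37.6% of all promoters) and GGGCGG, the core of a GC box, in 22 of 41 (53.7%, beside 43.7%). Among kept collagens these motifs occurred in 2, 4 and 3 of 7, and among those in neither list in 0, 2 and 5 of 9.

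The genes that make and handle collagen were read in the same way. Of 16 genes of collagen biosynthesis (hydroxylases, chaperones and glycosyltransferases), 1 had the start site in a K27R peak, beside 28.2% of all genes. This was Glt25d2, a galactosyltransferase of collagen, which kept peaks of 13 kb in K27M and 10.4 kb in EZHIP within a region of 124.8 kb. Of 13 genes of processing and crosslinking, 4 were marked. Adamts2, a procollagen N-proteinase, lay in a K27R region of 214.6 kb and kept peaks of 10 kb (K27M) and 3.8 kb (EZHIP). For Tll2, a relative of Bmp1, these widths were 213.2, 9.4 and 7.4 kb. Bmp1 and Tll1 had no K27R peak. The related N-proteinase genes Adamts3 and Adamts14 were marked at 21.6 and 40.2 kb in K27R and were in neither inhibitor list, while Lox and the 4 Loxl genes, which crosslink collagen, had no K27R peak. Of 10 receptor genes, 3 were marked (Itga11, Gp6 and Lair1), so that both of these lists lay near the share of all genes. Itga11, a fibroblast integrin subunit that binds type I collagen, had peaks of 5 kb in K27R and 3.2 kb in K27M and none in EZHIP. No collagen showed this at its start base in the full lists.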

How the data were processed

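Chromatin from MEFs was digested with MNase and immunoprecipitated with an H3K27me3 antibody, per the labels. The authors aligned reads to mm9 and to a further genome used for scaling (the submitters' processing notes name Bowtie 1.0.0, deepTools, mm9 and dm6), and called broad peaks with MOSAiCS-HMM for each library. The deposited lists give chromosome, start and end on a 200 bp grid, and whether that scaling entered the calls is not given in the sources used here. Groups were taken from sample titles. All peaks end inside the mm9 chromosome lengths, and the mm9 sequence with GENCODE vM1 was used without conversion.

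A start site was the 5′ end of a gene record, the body the whole record, and an overlap at least 1 bp. A residual peak is a K27M or EZHIP peak. Islands of CpG were located in mm9 (17 for each CG and -1 for other bases, longer than 200 bp, at least 50% G+C, observed to expected ratio above 0.6), which gave 27075 islands on chromosomes 1 to 19 and X. Calculations used Python 3.11.15, numpy 2.4.6, scipy 1.17.1, numba 0.67.0 and matplotlib 3.10.9. The interval tools gave 0 errors in 6050 checked cases on simulated data, and 100 planted islands were all found.

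The members and gene lists were chosen with earlier results of these data known. Intervals were named for members with a start site in an inhibitor list, for up to 6 members of each other class with the widest K27R region, and for 8 fibroblast collagens. Alternatives were other definitions of the start, minimum widths, merging, equal numbers of peaks and stricter body overlap. Counting genes of 1 region once and joining abutting K27R peaks were chosen after seeing the data. A promoter sequence that the naming rule called for is not reported here.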

Additional observations from a re-analysis of the deposited data

How the results depend on the processing

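Of 113 recomputed values, 98 stayed within 1.5-fold of the reported one. With peaks of at least 5000 bp, collagen start sites in EZHIP peaks fell from 7 to 3, as did those in both inhibitor lists. Those in K27M peaks fell to 5, so that the 2 lists no longer held the same genes. Under that minimum, body overlaps went from 8 to 5 in K27M and from 11 to 4 in EZHIP, start sites of other collagens from 5 to 3 in K27M and to 2 in EZHIP, fibrillar start sites from 2 to 1 in EZHIP, and the covered EZHIP share from 1.345% to 0.8309%. Requiring 10% of the body left 3 genes in each inhibitor list, and leaving out the first 5000 bp left 5 in K27M and 6 in EZHIP. With starts of coding transcripts, Col27a1 was lost and 1 fibrillar gene remained in each inhibitor list. With the 3338 widest peaks of each list, 2 fibrillar start sites rather than 4 lay in K27R. Within 1000 bp of the start, Col23a1 joined the kept genes (8 kept, 8 in neither). Over the 5000 bp upstream of the start, Col9a1 met a K27M peak and no EZHIP peak (8 collagens in K27M, 7 in EZHIP). Counting genes of 1 region once or joining abutting peaks, both chosen after seeing the data, moved no count by over 1.5-fold. No paired analysis was possible because each group has 1 library, and no replicate could be left out. The cause of these changes was not tested beyond the settings themselves. Depth is unknown, so that a missing peak does not show that the mark was absent.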

Other observations

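Collagen genes outside the rule gave further values. Col4a5 and Col4a6, basement membrane chains that start near each other on chromosome X, lay wholly within a single K27R region of 2016 kb, and neither start was in an inhibitor list. The nearest K27M and EZHIP peaks were 235 and 242 kb from the Col4a5 start and 237 and 243 kb from the Col4a6 start, and K27M covered 0.147% of Col4a6. The annotation lists the type XXVI collagen gene, Col26a1, under the symbol Emid2 (chr5:137217629-137359079), which the symbol rule did not take. Its start lay in a K27R region of 336.8 kb that covered 100% of the gene, with a K27M peak of 18 kb and an EZHIP peak of 8.2 kb over the start. Over the gene body, K27M peaks covered 10.2% and EZHIP peaks 14.0%. Col4a3bp, taken by the rule but no collagen, had no peak in any list over the gene and lay 71.5 kb from the nearest K27R peak.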
